A study of Mus musculus with 29 samples.

Results

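The Myc and Max network was taken as 9 genes, Myc, Mycn, Max, Mxi1, Mxd1, Mxd3, Mxd4, Mnt and Mga. They were chosen by name, with earlier results of these data known. Of these, 9 of 9 were among the 23918 gene symbols used from 29 mouse RNA sequencing libraries of kidney cells. The cells studied were nephron progenitors (NPCs), which make up the cap mesenchyme, carry the marker Six2 and give rise to the nephrons. Every mouse was a C57BL/6 and 129 hybrid with the Six2-GCE allele, in which a GFP and tamoxifen-inducible Cre fusion is made from the Six2 locus. Whether 1 or both copies of Six2 were altered was not stated. Of the 20 libraries of poly(A) RNA, 8 came from NPC lines grown as 3D aggregates in a medium named NPSR. There was 1 line from embryonic day E11.5, 1 from E13.5, 1 from E16.5 and 1 from postnatal day P1, and each was sampled at passage 20 (P20) and passage 80 (P80). A further 2 poly(A) libraries held E12.5 kidney cells titled Six2-negative, although their cell type label reads NPC. The other 10 were primary NPCs, 2 libraries at each of the same 4 ages and at E12.5. The last 9 libraries were total RNA from cultures with the age label E13.5 without 1 medium component, with 1 library each on day 4 and day 8 for BMP7, CHIR, heparin and Y27632 and on day 8 alone for LIF. No total RNA library of the complete medium was analysed here. The labels do not state whether replicates were separate animals or cultures, so a p-value here refers to the spread among the libraries at hand, which may be technical.

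Myc and Mycn are transcription factors that bind DNA as dimers with Max, mostly at the E-box CACGTG, and raise transcription of genes for ribosomes, nucleotides and cell growth. Max also pairs with Mxd1, Mxi1, Mxd3, Mxd4 and Mnt, which bring corepressors with histone deacetylases to the same sites, and with Mga, which has a T-box as a further DNA binding domain and belongs to a Polycomb complex. Which partner Max has is thus set in part by the relative amounts of these proteins. In the embryonic kidney, Myc and Mycn are known as drivers of progenitor proliferation.

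Values were RPKM, read counts scaled by transcript length and by the library's mapped reads. This allows a rough comparison of levels between genes, and between libraries of the same RNA selection. Other scalings moved the share of called genes that were higher, as given below. The depth, estimated in M reads per library, lay between 6.6 and 20.2 (lines at P20), 15.1 and 24.2 (lines at P80), 20.4 and 32.5 (Six2-negative), 11.6 and 32.5 (primary NPCs) and 6.6 and 16.8 (withdrawal). The deposited table joined libraries of 2 kinds, 18 in which the values of the last 2 lines were displaced and 11 in which they were not. All lines at P80 fell in the set of 18 and all lines at P20 in the set of 11, so passage and table set cannot be told apart. At the 4 primary ages with 1 library in each set, Myc, Mycn, Mxi1 and Mxd1 had the higher value in the set of 18 at 4 of 4 ages. The summed level of 7 cap mesenchyme markers (Six2, Cited1, Eya1, Meox1, Uncx, Osr1 and Crym) was 604 to 1150 RPKM in lines and 653 to 1340 RPKM in primary NPCs, and 59.6 and 68.7 RPKM in Six2-negative cells against 835 and 851 RPKM in E12.5 NPCs.

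All 9 members are protein-coding genes in the mm9 annotation (GENCODE M1). Myc lies at chr15:61816946-61821929 on the plus strand and Mycn at chr12:12942902-12948720 on the minus strand. Max lies at chr12:78038256-78063235 on the minus strand. The genes for the repressing partners lie at chr19:53384996-53450300 (Mxi1, plus), chr6:86597038-86619153 (Mxd1, minus), chr13:55426529-55431119 (Mxd3, minus), chr5:34516536-34530369 (Mxd4, minus) and chr11:74644422-74659227 (Mnt, plus). Mga lies at chr2:119722964-119795317 on the plus strand.

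The 250 bases before the gene start are shown for the 3 members that held a searched motif, because E-boxes are the sites that the network's own dimers bind and because the culture medium holds CHIR, the usual short name of a GSK3 inhibitor that turns on β-catenin and its TCF partners. RefSeq promoters on GRCm38.p6 were found for 8 members, and Myc is named only. Both strands were searched for CACGTG, which 6.0% of 32851 mouse promoters of the same length hold, and for the TCF motifs CTTTGAA (4.5%) and CTTTGAT (3.2%). No stretch held 2 of these motifs at once. Mycn held CTTTGAA on the strand opposite to the one printed, starting at -14 from the gene start (chr12:12941837-12942086, minus strand). Mxd4 held an E-box at -219 (chr5:34187711-34187960, minus strand) and Mnt held an E-box at -123 (chr11:74830674-74830923, plus strand). Capitals mark the motif in each sequence, written 5′ to 3′.
Mycn: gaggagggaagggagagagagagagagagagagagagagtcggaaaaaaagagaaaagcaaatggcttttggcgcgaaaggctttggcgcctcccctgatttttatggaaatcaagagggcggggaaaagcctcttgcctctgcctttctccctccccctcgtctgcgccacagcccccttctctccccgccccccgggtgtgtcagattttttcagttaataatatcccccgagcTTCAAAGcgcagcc
Mxd4: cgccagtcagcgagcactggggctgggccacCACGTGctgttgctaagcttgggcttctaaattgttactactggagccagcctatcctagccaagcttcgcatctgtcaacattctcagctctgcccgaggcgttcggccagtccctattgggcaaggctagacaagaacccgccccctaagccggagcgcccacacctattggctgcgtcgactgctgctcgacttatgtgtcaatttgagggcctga
Mnt: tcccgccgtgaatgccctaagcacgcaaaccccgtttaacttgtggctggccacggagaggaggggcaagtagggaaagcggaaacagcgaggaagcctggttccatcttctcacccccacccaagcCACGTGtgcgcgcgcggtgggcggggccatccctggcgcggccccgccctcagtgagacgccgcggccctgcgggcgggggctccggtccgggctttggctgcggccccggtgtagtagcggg

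The order of levels within the network differed between cultured lines and primary NPCs. In lines, Mycn was the highest member, with a mean of 52.8 RPKM at P20 and 51.9 RPKM at P80, followed by Max with 46.2 and 47.7 RPKM and Myc with 23.7 and 25.4 RPKM. In the 8 primary libraries of the same 4 ages, Myc was the highest with 84.8 ± 33.5 RPKM (SD, n = 8), followed by Max with 43.0 ± 2.43 RPKM. At P1 alone, Max averaged 42.6 RPKM and Myc 39.2 RPKM. Mxd3 (21.9 ± 5.86 RPKM), Mycn (20.3 ± 4.32 RPKM), Mxd4 (18.9 ± 4.27 RPKM) and Mxi1 (15.8 ± 4.79 RPKM) came next and did not differ from their neighbours beyond their spread. Mnt (12.3 ± 2.30 RPKM), Mxd1 (6.64 ± 1.21 RPKM) and Mga (5.16 ± 1.20 RPKM) were the lowest. Max, the shared partner, had the narrowest range of the 9 in relative terms, 34.0 to 49.7 RPKM over all 29 libraries.

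**Figure D1:**
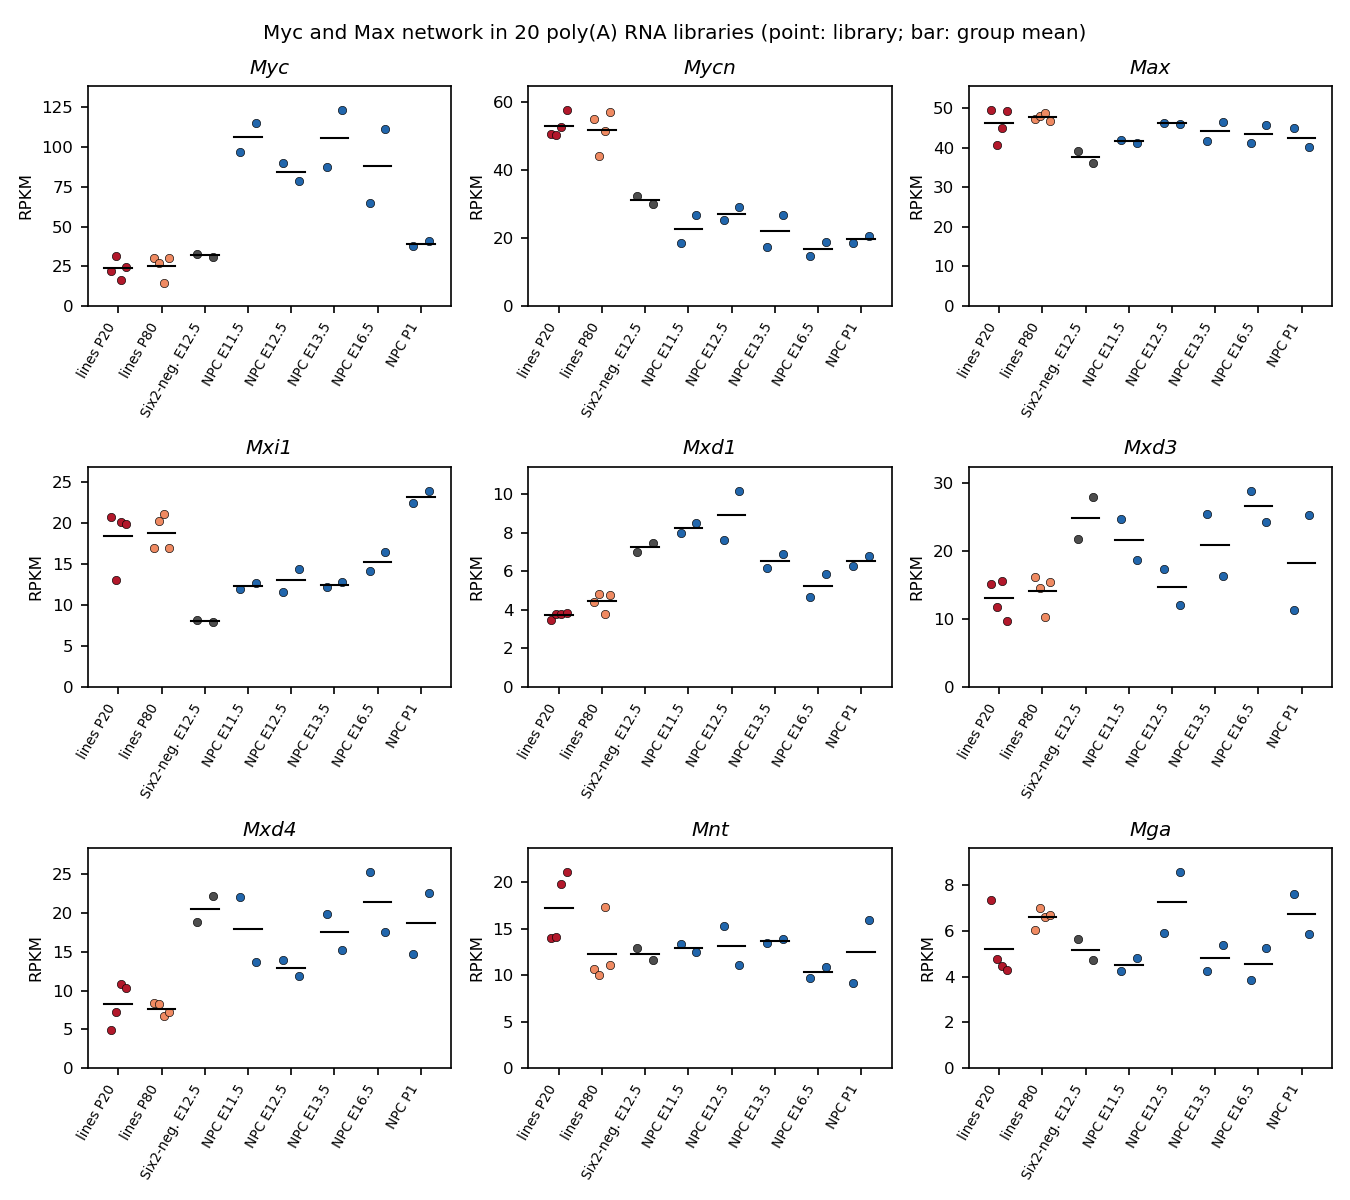
RPKM of each member in the 20 poly(A) libraries, with 1 point per library and a bar at the group mean; groups are the lines at P20 and P80, Six2-negative E12.5 cells and primary NPCs by age. Mycn is highest in the lines, where it averages 52.8 and 51.9 RPKM, and Myc is highest in primary NPCs from E11.5 to E16.5.

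The lines were set against primary NPCs of the same ages to ask how culture changes the progenitors. Myc was lower and Mycn higher in the lines at both passages, and among the repressing partners Mxd4 and Mxd1 were lower. The fits at P20 and at P80 used the same 8 primary libraries. At P20, 5 of 9 members passed the test (limma on log2(RPKM + 1) with Benjamini-Hochberg adjustment over 13612 genes, adjusted p under 0.05), against 36.1% of all genes tested, 14.5% higher and 21.6% lower. At P80, 4 of 9 members passed, against 39.3% of all genes. Of the called genes 40.2% were higher at P20, and 50.7% after quantile scaling. At P80 these shares were 38.9% and 49.1%. Markers of several other cell types were lower in the lines too, but 0 of 6 endothelial markers were called at either passage. At P20, 4 of 8 stromal, 3 of 8 ureteric bud, 3 of 8 tubule, 3 of 6 macrophage and 2 of 5 tested erythroid markers were lower and none higher, and at P80 the counts were 3, 3, 3, 4 and 2. Their summed levels in lines and in primary NPCs were 102 to 166 against 201 to 570 RPKM (stroma), 22.1 to 61.5 against 53.0 to 413 RPKM (ureteric bud), 25.1 to 85.9 against 4.58 to 3000 RPKM (tubule), 12.4 to 34.6 against 24.0 to 692 RPKM (macrophage) and 0.0772 to 1.56 against 0.352 to 694 RPKM (erythroid). For tubule markers, the sums of E11.5 and E13.5 primary NPCs, at 4.58 to 9.76 RPKM, lay below the lines. Those of E16.5 and P1 primary NPCs, at 131 to 3000 RPKM, lay above them. Of 7 cap mesenchyme markers 3 were lower at each passage. The part of these cells in the differences of the members was not tested.

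Myc stood at 22.1, 31.5, 16.6 and 24.6 RPKM in the 4 lines at P20, by age of origin from E11.5 to P1. It stood at 30.1, 27.0, 14.5 and 30.2 RPKM in the same lines at P80, against a lowest value of 37.7 RPKM, a median of 92.4 RPKM and a highest of 123.7 RPKM in the 8 primary libraries. All line libraries were below all primary libraries, and the primary libraries nearest to the lines were those of P1. The fitted log2 change was -1.71 ± 0.28 (SE) at P20 and -1.63 ± 0.28 at P80 (limma, adjusted p = 0.000494 and 0.000668), which is 3.27-fold and 3.10-fold lower on the RPKM + 1 scale. In bulk libraries, fewer cells of a type and less RNA per cell cannot be told apart. Within the same table set, with 1 primary library per age, the log2 change was -1.51 at P20 and -1.84 at P80 (limma, adjusted p = 0.0322 and 0.0224).

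Mycn, the Myc relative that the embryonic kidney also uses, moved the other way. It stood at 50.6, 50.2, 52.6 and 57.8 RPKM in the 4 lines at P20, by age of origin from E11.5 to P1. It stood at 55.0, 44.1, 51.4 and 57.0 RPKM in these lines at P80, against a lowest value of 14.8 RPKM, a median of 18.7 RPKM and a highest of 26.9 RPKM in primary libraries. All line libraries were above all primary libraries, whatever the age of origin. The log2 change was 1.36 ± 0.14 at P20 and 1.33 ± 0.14 at P80 (limma, adjusted p = 1.16e-05 and 1.49e-05), which is 2.57-fold and 2.52-fold higher. Both genes kept their direction and their call under 18 of 18 alternative settings at each passage.

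As a share of the Myc and Mycn transcripts together, Mycn made up 69.6, 61.4, 76.0 and 70.1% in the 4 lines at P20, by age of origin from E11.5 to P1. At P80 the shares were 64.7, 62.0, 78.1 and 65.4%, against 14.5 to 33.6% in primary NPCs. The line means averaged 68.4 ± 6.35% (SD, n = 4) and the primary libraries 21.1 ± 7.65% (SD, n = 8), a difference of 47.3 percentage points (exact permutation test over 495 arrangements, two-sided, p = 0.00404, the smallest that these numbers allow). Since neither gene overlapped between lines and primary NPCs, that p restates the separation given above and adds nothing to it. Such a share lies within a library and so does not depend on the scaling between libraries. The sum of both genes was 65.9 to 87.2 RPKM in lines and 56.3 to 150.3 RPKM in primary NPCs. The ranges overlap, and the P1 primary libraries, with 56.3 and 61.2 RPKM, lay below all lines.

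**Figure D2:**
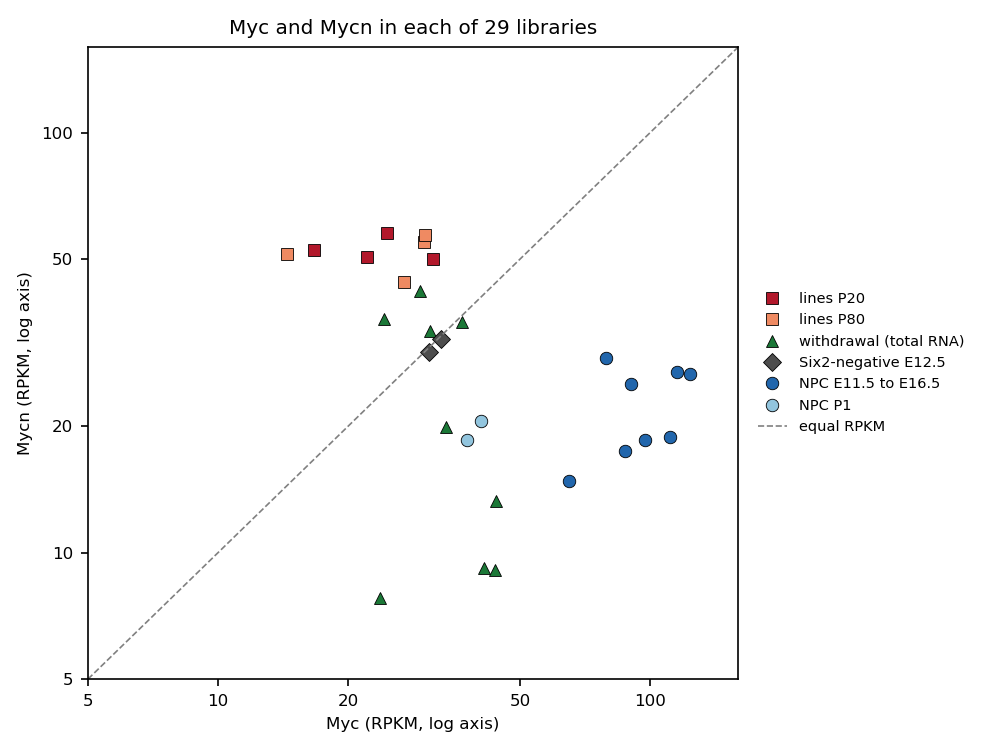
Mycn against Myc in each of the 29 libraries, in RPKM on log axes, with a dashed line where both are equal. Lines lie above the dashed line, with Mycn at 44.1 to 57.8 RPKM, the Six2-negative libraries lie next to it, and primary NPCs of every age lie below it.

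Among the repressing partners, Mxd4 had 4.84, 7.26, 10.9 and 10.3 RPKM in the 4 lines at P20, by age of origin from E11.5 to P1. It had 8.33, 8.27, 6.67 and 7.25 RPKM at P80, against a lowest value of 13.7, a median of 18.7 and a highest of 25.4 RPKM in primary NPCs. No line library reached the lowest primary library. Mxd4 was lower by a log2 change of -1.12 ± 0.20 at P20 and -1.18 ± 0.20 at P80 (limma, adjusted p = 0.000781 and 0.00052), and passed under 18 of 18 alternative settings at each passage.

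Mxd1, the founding Mad gene and known for its rise as cells differentiate, had 3.46, 3.80, 3.78 and 3.85 RPKM in the 4 lines at P20, by age of origin from E11.5 to P1. It had 4.396, 4.84, 3.76 and 4.78 RPKM at P80, against a lowest value of 4.67, a median of 6.54 and a highest of 8.52 RPKM in primary NPCs. Lines at P20 did not overlap with primary libraries, and lines at P80 overlapped only with the lowest of them, an E16.5 library. The log2 change was -0.68 ± 0.11 at P20 and -0.48 ± 0.11 at P80 (limma, adjusted p = 0.000425 and 0.0045). Over 18 alternatives the adjusted p ranged from 0.000275 to 0.116 at P20, where it missed the threshold within the same table set, and from 0.00241 to 0.0713 at P80, where it missed it after quantile scaling.

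Mxd3, a Mad gene that is known to be expressed in cycling cells, had 15.1, 11.8, 15.6 and 9.68 RPKM in the 4 lines at P20, by age of origin from E11.5 to P1. It had 16.2, 14.6, 10.3 and 15.5 RPKM at P80, against a lowest value of 11.3, a median of 24.5 and a highest of 28.95 RPKM in primary NPCs. The groups overlap through 1 P1 primary library with 11.3 RPKM. The log2 change of -0.68 ± 0.22 at P20 passed the test (limma, adjusted p = 0.0283), and that of -0.57 ± 0.22 at P80 did not (adjusted p = 0.0565). The call at P20 rests on single libraries. Its adjusted p ranged from 0.00463 to 0.0897 over 18 alternatives and missed the threshold in 7, among them leaving out E13.5 NPC replicate 1 (0.0531) or any 1 of the 4 lines at P20 (0.0505 to 0.0897). The P80 value passed without E13.5 NPC replicate 2 (adjusted p = 0.0486), without P1 NPC replicate 1 (0.00951) or without the P1 line (0.0372), in a range of 0.00951 to 0.26.

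Mxi1, the Mad gene that was found as a Max interactor, did not pass in the lines. It had 13.0 to 20.8 RPKM in lines at P20 and 16.9 to 21.1 RPKM at P80, against 11.9 to 24.0 RPKM in primary NPCs, whose range encloses that of the lines. The 95% intervals of the log2 change were -0.11 to 0.58 at P20 and -0.07 to 0.62 at P80. Without the P1 line at P80 the change at P80 passed (limma, adjusted p = 0.0344), in a range of 0.0344 to 0.597 over its alternatives.

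Max, Mnt and Mga did not pass either. Max had 40.7 to 49.7 RPKM in lines at P20 and 46.8 to 48.8 RPKM at P80, against 40.2 to 46.6 RPKM in primary NPCs, with 95% intervals of the log2 change of -0.07 to 0.27 and -0.02 to 0.32. Mnt, the broadly expressed antagonist of Myc, had 14.0, 14.1, 19.8 and 21.2 RPKM in the 4 lines at P20, by age of origin from E11.5 to P1. It had 10.6, 10.02, 17.4 and 11.1 RPKM at P80, against 9.11 to 15.9 RPKM in primary NPCs. Lines from the later ages were the higher ones at P20. Mga had 4.28 to 7.35 RPKM at P20 and 6.06 to 7.03 RPKM at P80, against 3.87 to 7.61 RPKM in primary NPCs. After trimmed-mean scaling Max passed at P80 (log2 change 0.21, limma, adjusted p = 0.0495, range 0.0495 to 0.294) and Mnt at P20 (0.51, adjusted p = 0.0407, range 0.0407 to 0.231). Mga passed at P80 without P1 NPC replicate 1 (adjusted p = 0.038, range 0.038 to 0.287).

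The summed level of the 5 repressing partners was set against that of Myc and Mycn within each library. The log2 ratio averaged -0.381 ± 0.209 in the 4 lines (SD, n = 4) and -0.403 ± 0.647 in the 8 primary libraries (SD, n = 8). The difference of 0.0221 was smaller than the spread between libraries (exact permutation test, two-sided, p = 0.937). This test pooled the ages, so it does not show an unchanged ratio at each age. At P20 and P80 the ratio was -0.32 and -0.59 in the E11.5 line, -0.71 and -0.30 in the E13.5 line and 0.02 and -0.15 in the E16.5 line. Primary NPCs of these ages had -0.53 and -1.11, -0.45 and -1.21, and 0.05 and -0.80. The P1 line had -0.35 and -0.65. The primary libraries covered a range of -1.21 to 0.63, with both P1 libraries, at 0.18 and 0.63, above the lines.

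**Figure D3:**
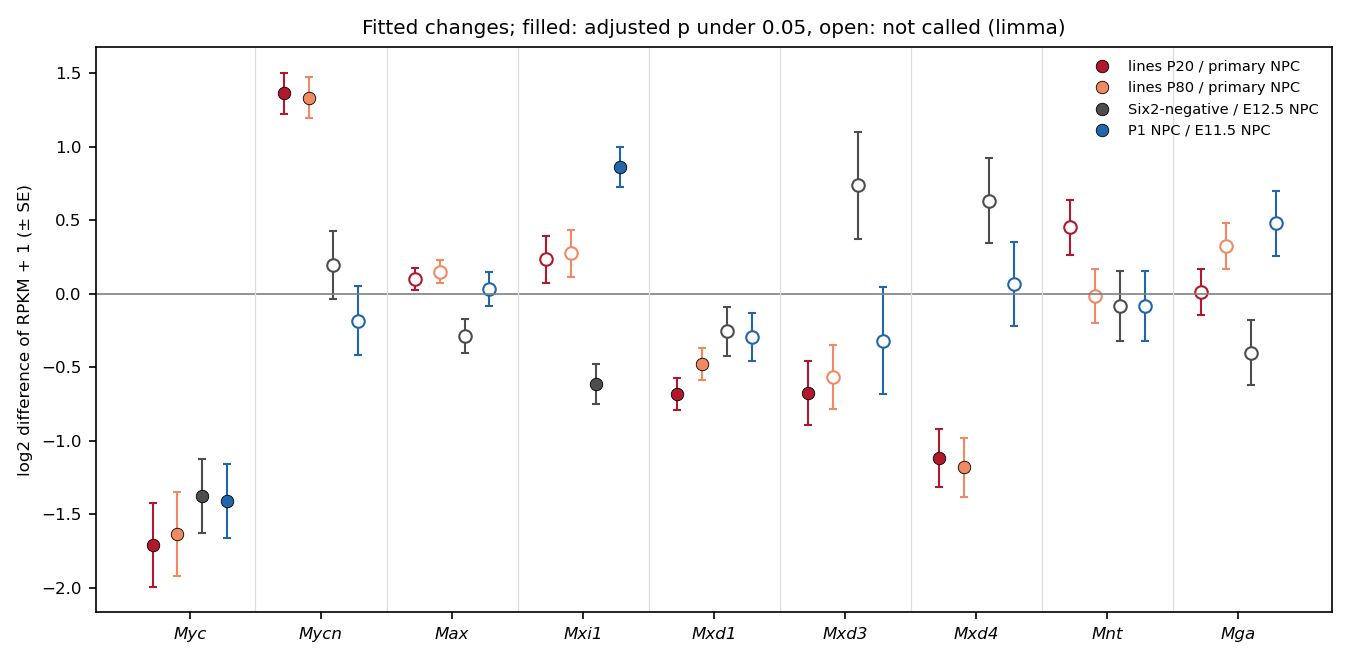
Fitted log2 difference of RPKM + 1 with its standard error for each member in 4 comparisons; filled points passed limma's test at an adjusted p under 0.05 and open points did not. Myc is below 0 and filled in all 4 comparisons, at -1.71, -1.63, -1.38 and -1.41, and Mycn is filled and above 0 in the lines alone, at 1.36 and 1.33.

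No member passed between lines at P80 and lines at P20, and 0.0% of 13612 genes did (limma, 0 genes with Benjamini-Hochberg adjustment and 819 at an unadjusted p under 0.05). This fit did not pair the passages of a line, and its spread included the primary libraries. In a fit of the line libraries alone with line as a block, no gene or member was called either. The largest difference in the network was that of Mnt, whose means were 12.3 ± 3.42 RPKM at P80 and 17.3 ± 3.74 RPKM at P20 (SD, n = 4 each), lower at P80 in 4 of 4 lines. Its log2 change was -0.47 ± 0.21 (limma, adjusted p = 0.8), and the table set differs between the passages in every line. The 95% interval of Mycn was -0.38 to 0.32 and that of Myc -0.63 to 0.79.

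Lines of late origin (E16.5 and P1) were then set against lines of early origin (E11.5 and E13.5), and late primary NPCs against early primary NPCs. Among the lines no member passed, against 0.0441% of all genes (6 genes), with each line counted as 1 value. Among primary NPCs 1 of 9 members passed, Mxi1, against 24.7% of all genes. Mxi1 averaged 19.2 ± 4.72 RPKM in late and 12.4 ± 0.402 RPKM in early primary NPCs (SD, n = 4 each), a log2 change of 0.56 ± 0.15 (limma, adjusted p = 0.027). It missed the threshold on leaving out any 1 of the 4 early libraries (0.0595 to 0.0718) or P1 NPC replicate 2 (0.0597), in a range of 0.0106 to 0.0718 over 12 alternatives. In the same comparison 7 of 8 ureteric bud, 6 of 8 tubule and 5 of 8 stromal markers were higher, and 1 stromal marker, Meis1, was lower. Of other markers, 3 of 5 erythroid, 1 of 6 macrophage and 1 of 6 endothelial were higher. Of 7 cap mesenchyme markers, 3 were lower (Meox1, Osr1 and Uncx) and 1 was higher (Cited1). Of 10 proliferation genes 4 were lower. Among all genes 15.2% were higher and 9.52% lower. The part of these markers in the Mxi1 difference was not tested.

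Myc averaged 63.7 ± 34.1 RPKM in late and 105.9 ± 16.51 RPKM in early primary NPCs (SD, n = 4 each). The log2 change of -0.85 ± 0.31 did not pass (limma, adjusted p = 0.0644), and it was -1.16 with an adjusted p of 0.00508 without E16.5 NPC replicate 2, in a range of 0.00508 to 0.149. Mxd1 passed after quantile scaling (-0.56, adjusted p = 0.031, range 0.031 to 0.266) and Mnt without P1 NPC replicate 2 (adjusted p = 0.0369, range 0.0369 to 0.491). The test of whether the age difference itself differed between lines and primary cells passed for no member, against 0.713% of all genes. Of the genes called between late and early primary NPCs 61.5% were higher, and 39.9% after quantile scaling, while these shares were 18.6% and 36.8% for the difference between lines and primary cells.

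The age series of primary NPCs addresses how progenitors change toward the end of nephron formation. Myc fell and Mxi1 rose at P1, and no other member passed. Myc had 97.1 and 115.4 RPKM at E11.5, 90.1 and 78.9 RPKM at E12.5, 87.6 and 123.7 RPKM at E13.5, 65.0 and 111.4 RPKM at E16.5, and 37.7 and 40.7 RPKM at P1. The embryonic ages overlapped with one another, except that both E11.5 libraries lay above both E12.5 libraries, and both P1 libraries lay below all 8 embryonic ones. Mxi1 had 11.9 and 12.6 RPKM at E11.5, 11.6 and 14.4 RPKM at E12.5, 12.2 and 12.8 RPKM at E13.5, 14.1 and 16.4 RPKM at E16.5, and 22.4 and 24.0 RPKM at P1. Both P1 libraries of Mxi1 lay above all embryonic ones.

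In P1 against E11.5 NPCs, 2 of 9 members passed, against 35.1% of all 13574 genes, 17.5% higher and 17.7% lower. Myc changed by -1.41 ± 0.25 and Mxi1 by 0.86 ± 0.14 on the log2 scale (limma, adjusted p = 0.00517 and 0.00332), 2.66-fold lower and 1.82-fold higher. Both passed under 10 of 10 alternatives. Of the called genes 49.7% were higher, and 38% after quantile scaling. The F test over the 5 ages, which uses the same libraries, passed for the same 2 members (limma, adjusted p = 0.0205 for Myc and 0.0125 for Mxi1), against 24.5% of all genes. There, Myc missed the threshold without E11.5 NPC replicate 2 (0.0519) or P1 NPC replicate 1 (0.082), in a range of 0.00695 to 0.082 over 16 alternatives.

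Set against E16.5, the age next to it, P1 again had 2 of 9 members past the threshold, against 6.48% of all genes. Of the called genes 42.2% were higher, and 57.7% after trimmed-mean scaling. The P1 libraries are the same as in the comparison with E11.5. Myc changed by -1.10 ± 0.25 (limma, adjusted p = 0.0404) and Mxi1 by 0.58 ± 0.14 (adjusted p = 0.0437). Both calls depend on the processing and on single libraries. Myc missed the threshold with no filter on low values (0.0551), trimmed-mean scaling (0.0501) or quantile scaling (0.0699), and Mxi1 with a term for the table set (0.0506). Myc changed by -0.72 without E16.5 NPC replicate 2 (adjusted p = 0.133) and had an adjusted p of 0.156 without P1 NPC replicate 1, in a range of 0.0228 to 0.156. Mxi1 missed the threshold without E16.5 NPC replicate 1 (0.145), E16.5 NPC replicate 2 (0.0935) or P1 NPC replicate 1 (0.113), in a range of 0.0331 to 0.145. Mxd3 passed without P1 NPC replicate 2 (log2 change -1.16, adjusted p = 0.0332, range 0.0332 to 0.943).

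Mycn had 18.5 and 26.9 RPKM at E11.5, 25.3 and 29.1 RPKM at E12.5, 17.4 and 26.6 RPKM at E13.5, 14.8 and 18.8 RPKM at E16.5, and 18.6 and 20.6 RPKM at P1. Each age overlapped with its neighbours. The Mycn share of both transcripts was 33.0 and 33.6% at P1, above the 14.5 to 26.9% of all embryonic NPCs. Markers of other cells moved with age as well. In P1 against E11.5, the sum over 8 tubule markers was 296 and 3000 RPKM at P1 and 4.58 and 6.20 RPKM at E11.5. Of 7 tested, 6 were higher, among them Kap, which was at 0 RPKM at E11.5 and reached the filter through P1 alone. The sum over 10 proliferation genes was 373 and 530 RPKM at P1 and 865 and 905 RPKM at E11.5, with 8 of 10 lower. Of 8 stromal markers 5 were higher and 1 lower, and 3 of 8 ureteric bud and 2 of 6 erythroid markers were higher. Of 7 cap mesenchyme markers 3 were lower (Osr1, Meox1 and Crym) and 1 was higher (Cited1). Their part in the Myc and Mxi1 differences was not tested.

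The E12.5 cells titled Six2-negative were set against NPCs of the same age to ask which genes mark the progenitors within the kidney. Myc and Mxi1 were lower in Six2-negative cells, 2 of 9 members, against 13.6% of all genes, of which 9.28% were higher and 4.32% lower. Myc had 32.9 and 30.9 RPKM in Six2-negative cells, against 90.1 and 78.9 RPKM in E12.5 NPCs. Mxi1 had 8.21 and 7.98 RPKM in Six2-negative cells, the lowest of the poly(A) libraries, against 11.6 and 14.4 RPKM in E12.5 NPCs. The log2 changes were -1.38 ± 0.25 for Myc and -0.62 ± 0.14 for Mxi1 (limma, adjusted p = 0.00872 and 0.0192), 2.60-fold and 1.53-fold lower.

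With 2 libraries per group, both calls depend on single libraries. Myc missed the threshold without E12.5 NPC replicate 2 (0.0538) or Six2-negative replicate 2 (0.079), in a range of 0.00485 to 0.079 over 10 alternatives. Mxi1 missed it without E12.5 NPC replicate 2 (0.157), Six2-negative replicate 1 (0.0802) or Six2-negative replicate 2 (0.13), in a range of 0.0143 to 0.157. Mycn had 32.3 and 30.0 RPKM in Six2-negative cells, against 25.3 and 29.1 RPKM in E12.5 NPCs, with a 95% interval of the log2 change of -0.34 to 0.73. It made up 49.6 and 49.3% of both transcripts in Six2-negative cells, against 21.9 and 26.9% in E12.5 NPCs.

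Mxd3 had 21.9 and 28.0 RPKM and Mxd4 18.9 and 22.2 RPKM in Six2-negative cells, against 17.3 and 12.1 RPKM and 13.9 and 11.8 RPKM in E12.5 NPCs. Neither passed (limma, adjusted p = 0.234 and 0.197). In Six2-negative cells Max had 39.3 and 36.2 RPKM, Mxd1 7.02 and 7.46, Mga 5.63 and 4.75, and Mnt 12.9 and 11.6 RPKM. In E12.5 NPCs Max had 46.2 and 46.2 RPKM, Mxd1 7.64 and 10.2, Mga 5.93 and 8.61, and Mnt 15.3 and 11.1 RPKM. Max, Mxd1, Mga and Mnt did not pass either. Markers of other cell types differed as well. The sum over 8 stromal markers was 789 and 1040 RPKM in Six2-negative cells and 230 and 247 RPKM in E12.5 NPCs, with 7 of 8 higher. That over 6 erythroid genes was 2430 and 5960 RPKM in Six2-negative cells and 23.6 and 41.8 RPKM in E12.5 NPCs, with 6 of 6 higher, and 7 of 7 cap mesenchyme markers were lower. The part of this cell makeup in the Myc and Mxi1 differences was not tested.

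Across the poly(A) groups the levels of Myc formed 3 steps. Embryonic NPCs, at 65.0 to 123.7 RPKM, lay above P1 NPCs at 37.7 and 40.7 RPKM, and P1 lay above the Six2-negative cells and lines, which overlapped with each other. For Mycn, lines at 44.1 to 57.8 RPKM lay above Six2-negative cells at 30.0 and 32.3 RPKM, which lay above primary NPCs at 14.8 to 29.1 RPKM.

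Withdrawal of single medium components addresses which of them hold the lines in their state. Each component has 1 library per day. No test was run on them, and each library was set against the mean of the other withdrawals of its day. A gene counted as higher or lower when its log2 difference was at least 1 in size with the same sign on both days, or on day 8 for LIF. By this rule Mycn was above the mean of the other withdrawals when heparin, a cofactor of FGF signalling, was left out. It was below that mean when LIF, a cytokine that activates Stat3, was left out. Mycn was the 1 of 9 members called in each case, against 2.32% of 12189 genes for heparin and 7.24% for LIF. No member met the rule without BMP7, CHIR or Y27632, against 6.28%, 1.31% and 2.41% of genes.

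Mycn had 35.9 and 41.9 RPKM without heparin on days 4 and 8, and log2 differences of 1.15 and 1.38. It had 35.5 and 33.7 RPKM without Y27632, with log2 differences of 1.13 and 0.99. These 4 libraries were the highest on their days. Mycn had 7.82 and 20.0 RPKM without BMP7, a ligand of the TGF-β superfamily that progenitors respond to, and 13.3 and 9.09 RPKM without CHIR. It had 9.19 RPKM without LIF on day 8. The log2 differences were -1.6 and 0.08 without BMP7, -0.68 and -1.23 without CHIR and -1.22 without LIF. On day 8 Mycn was thus as low without CHIR as without LIF, for which day 8 alone was judged. The mean that the heparin libraries were set against included the libraries without BMP7, CHIR and, on day 8, LIF. The E13.5 line in complete medium, measured from poly(A) RNA, had 50.2 RPKM at P20 and 44.1 RPKM at P80, but RNA selection differs and these libraries were not compared.

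Myc varied less, with 23.8 to 43.9 RPKM over the 9 libraries. It was highest without CHIR, at 43.9 and 43.7 RPKM on days 4 and 8, and had log2 differences of 0.65 and 0.37 there, under the threshold. The Mycn share of both transcripts was 49.2 to 59.7% without heparin or Y27632 and 17.2 to 37.2% without BMP7, CHIR or LIF. Between these sets of withdrawals, sums of cap mesenchyme markers overlapped, at 487 to 590 against 230 to 726 RPKM. Sums of other lists did not overlap. They were 650 to 749 against 434 to 535 RPKM for proliferation genes and 113 to 160 against 185 to 396 RPKM for stroma. They were 12.1 to 12.8 against 36.9 to 113 RPKM for endothelium and 32.1 to 75.4 against 4.55 to 31.2 RPKM for tubule. Only 1 endothelial and 1 tubule marker reached 1 RPKM in 2 or more of these libraries. Ureteric bud and macrophage sums overlapped. Their part in the Mycn values was not tested.

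Of the repressing partners, Mxi1 had 4.64 and 5.17 RPKM without BMP7 on days 4 and 8, the lowest values in the series, with log2 differences of -1.72 and -0.91. Mxd4 had 25.8 and 23.7 RPKM without BMP7, with differences of 1.00 and 0.43, and 20.3 and 35.0 RPKM without CHIR, with differences of 0.56 and 1.11. The value of 35.0 RPKM was the highest of Mxd4 in any library. Mxd1 had 7.05 and 9.41 RPKM without CHIR, the highest of each day. Mnt had 17.5 to 24.6 RPKM in the day 8 libraries, all above the 9.07 to 14.2 RPKM of the day 4 libraries. Max had 34.0 to 48.5 RPKM, Mxd3 15.98 to 26.8 RPKM and Mga 3.94 to 4.82 RPKM, and their log2 differences were at most 0.49 in size.

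**Figure D4:**
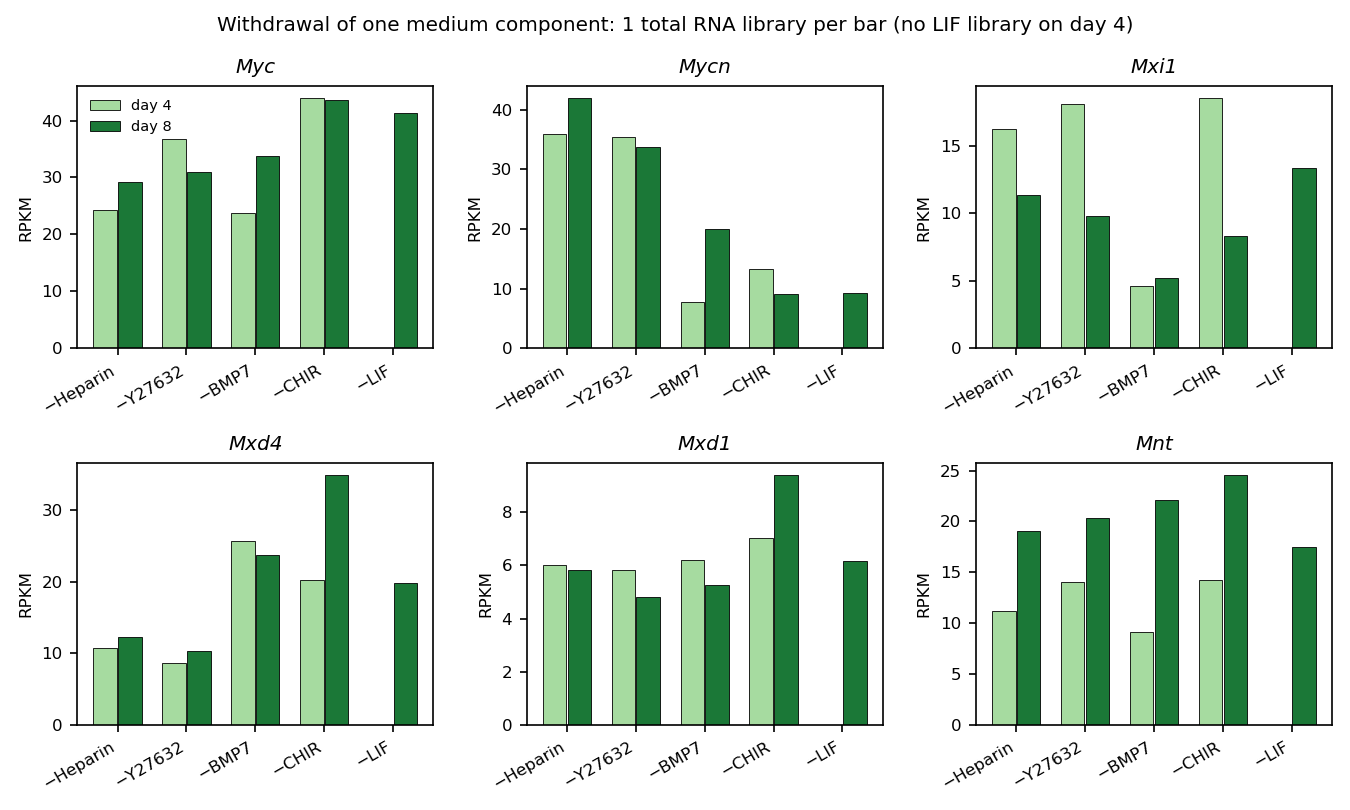
RPKM of 6 members in the 9 total RNA libraries, with 1 bar per library for days 4 and 8 after withdrawal of the component named on the x axis. Mycn is at 33.7 to 41.9 RPKM without heparin or Y27632 and at 7.82 to 20.0 RPKM without BMP7, CHIR or LIF, and Mnt is higher on day 8 than on day 4 in each pair.

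Relatives beyond the 9 members also differed between lines and primary NPCs. Mycl, the third Myc family gene, averaged 0.732 ± 0.369 RPKM in lines at P20 and 0.591 ± 0.118 RPKM at P80 (SD, n = 4 each), against 3.90 ± 1.09 RPKM in primary NPCs (SD, n = 8). Its log2 changes were -1.50 and -1.60 (limma, adjusted p = 3.94e-05 and 2.43e-05). Bmyc, which resembles the amino-terminal part of Myc and lacks its DNA binding region, averaged 26.9 ± 2.42 RPKM at P20 and 24.8 ± 3.51 RPKM at P80 (SD, n = 4 each), against 63.3 ± 15.0 RPKM in primary NPCs (SD, n = 8). It was lower by log2 changes of -1.17 and -1.28 (adjusted p = 0.000202 and 1e-04). Mlx, the Max-like partner of the glucose-sensing Mondo proteins, was higher at P80 (log2 change 0.40, adjusted p = 0.0296).

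Among primary cells, Bmyc (-0.89, adjusted p = 0.00345) and Mlx (-0.63, adjusted p = 0.016) were lower in P1 than in E11.5 NPCs on the log2 scale (limma). Mycl had 10.97 and 11.96 RPKM in Six2-negative cells, against 4.10 and 4.04 RPKM in E12.5 NPCs, higher by 1.30 on the log2 scale (adjusted p = 0.00981). Mlxipl was lower there (-0.99, adjusted p = 0.0463), a call that was lost after quantile scaling.

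A list of 21 regulators and cofactors of the Myc protein (acetyltransferase and Ruvbl subunits, Sin3 and histone deacetylases, ubiquitin ligases and their opponents) changed mostly with primary age. In P1 against E11.5 NPCs, 10 of 21 were lower and 1 was higher, against 17.7% lower and 17.5% higher among all genes, with a median log2 change of -0.51 against 0.04 for all genes. These counts were 8 lower and 1 higher after trimmed-mean scaling and 8 lower and 0 higher after quantile scaling. Aurka, a mitotic kinase that protects Mycn from degradation, was the lowest, with 12.04 and 25.6 RPKM at P1 and 80.7 and 69.8 RPKM at E11.5 (log2 change -2.03, limma, adjusted p = 0.00202), and Ncor1, a corepressor, was the 1 higher gene (0.55, adjusted p = 0.0329), a call that was lost after quantile scaling. In the lines 1 of 21 was called at each passage, against 36.1% of all genes at P20 and 39.3% at P80. It was Usp28, a deubiquitinase that stabilises Myc, which was higher (0.31 at P20 and 0.47 at P80, adjusted p = 0.0227 and 0.00192).

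Textbook targets of Myc were counted in the same fits. Their lists were made by name, but with earlier results of these data known, so the counts only describe these lists. Of 40 growth genes that Myc is known to induce (ribosome biogenesis, nucleotide and polyamine synthesis, chaperonins), 0 were higher and 24 lower in P1 against E11.5 NPCs, against 17.5% higher and 17.7% lower among all genes, with a median log2 change of -0.60 against 0.04 for all genes. Grwd1, a nucleolar assembly factor, changed most (-1.44, limma, adjusted p = 0.00448) and Phb, prohibitin, least (-0.41, adjusted p = 0.0466). Scaling moved the median of all genes to 0.112 (trimmed mean) or -0.109 (quantile), and the growth genes stayed below it with a median of -0.52 under both, with 21 and 19 lower. Proliferation genes fell in the same comparison, as given above, and their part in this was not tested. In P1 against E16.5 NPCs, 0 growth genes were higher and 5 lower, against 3.74% lower among all genes, and 3 were lower after trimmed-mean scaling and 2 after quantile scaling.

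In the lines, where Myc was lower and Mycn higher, the same growth genes had medians close to those of all genes but fewer calls. At P20 5 of 40 were called and at P80 8 of 40, against 36.1% and 39.3% of all genes. At P20, 1 was higher and 4 lower with a median of -0.07, against -0.11 for all genes. At P80, 0 were higher and 8 lower with a median of -0.16, against -0.11. Among all genes, 14.5% were higher and 21.6% lower at P20, and 15.3% were higher and 24.0% lower at P80. Odc1, the first enzyme of polyamine synthesis, changed most, with 30.1 ± 10.8 RPKM at P20 and 23.9 ± 6.81 RPKM at P80 (SD, n = 4 each), against 68.0 ± 14.0 RPKM in primary NPCs (SD, n = 8). Its log2 changes were -1.18 and -1.48 (limma, adjusted p = 0.00157 and 0.000304). The sum over the 40 genes was 3520 to 4310 RPKM in lines and 2680 to 4930 RPKM in the primary libraries, which enclose them. In Six2-negative cells 0 were higher and 1 lower (Ung, -0.60, limma, adjusted p = 0.0473), against 9.28% higher and 4.32% lower among all genes. The median log2 change of the growth genes was -0.16 there, against 0.02 for all genes. Their sums were 3550 and 3620 RPKM in Six2-negative cells, against 4340 and 4620 RPKM in E12.5 NPCs.

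Of 7 genes that Myc is known to repress (Cdkn1a, Cdkn1b, Cdkn2b, Gadd45a, Gadd45g, Ndrg1 and Ndrg2), 6 were higher and 0 lower in lines at both passages, against 14.5% higher at P20 and 15.3% at P80 among all genes. Their median log2 changes were 2.69 at P20 and 2.38 at P80, against -0.11 for all genes. These counts and medians include Cdkn2b, which had 0 to 1.08 RPKM in primary NPCs and 4.84 to 12.8 RPKM in lines. It met the filter of 1 RPKM in 2 libraries only through the lines, so its call as higher was largely set by the filter. Cdkn1a, an inhibitor of cyclin-dependent kinases, averaged 229 ± 82.8 RPKM at P20 and 210 ± 54.8 RPKM at P80 (SD, n = 4 each), against 9.88 ± 9.69 RPKM in primary NPCs (SD, n = 8). Its log2 changes were 4.69 and 4.60 (limma, adjusted p = 6.22e-07 and 8.1e-07). Cdkn1b, a second inhibitor of this kind, was the 1 gene that did not pass.

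In P1 against E11.5 NPCs, 4 of the 6 tested genes of this list were higher, against 17.5% of all genes, with a median of 1.92 against 0.04 for all genes. Ndrg2, a stress and differentiation gene, had 46.7 and 54.2 RPKM at P1 and 6.64 and 8.85 RPKM at E11.5 (log2 change 2.57, limma, adjusted p = 0.000775). Cdkn1b had the smallest called change (1.87, adjusted p = 0.0111). Tubule markers were higher and proliferation genes lower in the same comparison, as given above, and their part in this was not tested. In Six2-negative cells 0 of 6 were called, against 13.6% of all genes. Without BMP7, Ndrg1 and Ndrg2 were lower (log2 differences of -4.15 and -1.50, and -4.03 and -3.15, on days 4 and 8) and Gadd45a and Gadd45g higher (1.39 and 1.22, and 1.68 and 1.48). Ndrg1 and Ndrg2 were higher without heparin and without Y27632. Without LIF, Gadd45a (-1.63) and Gadd45g (-1.81) were lower and Cdkn2b (1.06) and Ndrg2 (1.32) higher. Among all genes, 6.28% met the rule without BMP7, 2.32% without heparin, 2.41% without Y27632 and 7.24% without LIF. Of the growth genes 1 met the rule in any withdrawal, Phb, higher without BMP7 (1.13 and 1.08). Their sums were 3690 to 4350 RPKM without heparin or Y27632 and 2700 to 3420 RPKM without BMP7, CHIR or LIF.

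**Figure D5:**
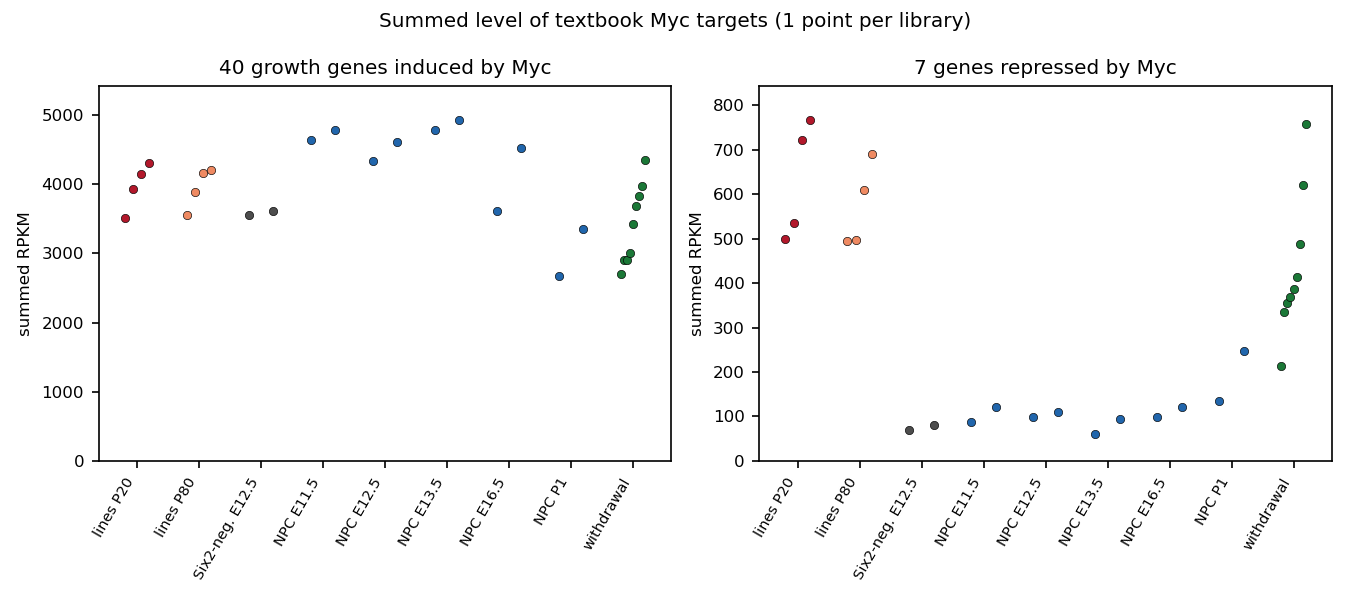
Summed RPKM of 40 growth genes that Myc induces (left) and of 7 genes that it represses (right), with 1 point per library in the lines, Six2-negative cells, primary NPCs by age and the 9 withdrawal libraries. The sums of the repressed genes are 494 to 767 RPKM in lines and 60.7 to 247 RPKM in primary NPCs, while those of the growth genes overlap between lines and primary NPCs.

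The genes most like Myc and Mycn were named by the Pearson correlation of log2(RPKM + 1) over the 20 poly(A) libraries, among 9543 genes. These libraries share ages, lines and table sets, so the values are descriptive. For Myc the nearest were Syt7 (r = 0.964) and Doc2b (0.947), calcium sensors of vesicle fusion, Tekt5 (0.953), a tektin, and Las1l (0.933) and Cmss1 (0.932), which act in ribosome assembly. Over the 8 primary libraries alone these 5 correlations were 0.857 to 0.917. For Mycn the nearest were Zfp217 (r = 0.944), a zinc finger protein, Scd1 (0.936) and Scd2 (0.928), desaturases of fatty acid synthesis, Gfpt2 (0.935), an enzyme of the hexosamine pathway, and Idh1 (0.928), a source of cytosolic NADPH. Over the 8 primary libraries alone these were -0.099 to 0.749, below all 5 values over the 20 libraries. Mean levels were 88.6 RPKM in lines and 4.26 RPKM in primary NPCs for Scd1, and 686 RPKM in lines and 128.7 RPKM in primary NPCs for Scd2. For Syt7 they were 1.116 RPKM in lines and 10.94 RPKM in primary NPCs.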

How the data were processed

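RPKM values of 29 libraries, with genes given by symbol, came in 1 table that the authors deposited. For the 20 poly(A) libraries STAR, Cufflinks and the mm9 genome are named per the submitters' processing notes, without versions. For the 9 withdrawal libraries they were not given in the sources used here. RPKM divides by transcript length and total mapped reads, so very abundant transcripts in a library lower its other values. Of 23947 table lines, 27 symbols turned into dates and the last 2 lines were left out. Depth was estimated from the spacing of low values. Only 37.3 to 48.9% of these lay within 0.1 of a whole read, so no count test was run.

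Two-sided tests on log2(RPKM + 1) came from limma 3.58.1 (R 4.3.3) with a variance trend. Genes that reached 1 RPKM in 2 or more of the libraries fitted were tested, with Benjamini-Hochberg adjustment. An adjusted p under 0.05 was called. Fold changes are on the RPKM + 1 scale, which understates changes of low genes. Primary NPCs and Six2-negative cells (12 libraries, 13574 genes) were fitted together. Lines were fitted with the 8 primary libraries of their ages and a term for age (16 libraries, 13612 genes). Late against early used the same 8 primary libraries and 4 line means. Exact permutation tests used SciPy 1.17.1 under Python 3.11.15, and matplotlib 3.10.9 drew the figures. The code was tested on simulated data. Alternatives were a pseudocount of 0.1, no filter, trimmed-mean (trim 0.3) and quantile scaling, a term or restriction for the table set, a replicate block, no age term, and leaving out each library. For P80 against P20, the line libraries alone with line as a block were also fitted. For withdrawal they were the median of the other libraries, a pseudocount of 0.1, quantile scaling and a 1.5-fold threshold.

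The text names the members that passed in each comparison. It gives values of all 9 for lines against primary NPCs, for Six2-negative cells and for withdrawal, and of some members in the others. Also named are the 5 genes most like Myc and Mycn among genes that reached 5 RPKM in 4 or more libraries. For most lists, called genes of largest or smallest change are named. Members and lists were chosen with earlier results of these data known. Replicate numbers were not used to pair libraries, since deviations correlated over 0.1 in only 7 of 15 pairs of groups (r of -0.109 to 0.374). In 5 of these 6 groups, the number coincides with the table set, which the term for the table set addresses.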

Additional observations from a re-analysis of the deposited data

Results flagged for a closer look

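Over 22 groups of 4 or more libraries, 3 values of members stood apart by Dixon's ratio of gap to range, where chance marks about 1 group in 20. Mxi1 had 13.0 RPKM in the E13.5 line at P20, below the other 3 lines of that passage, and the gap was 0.899 of the range. Mxd1 had 3.46 RPKM in the E11.5 line at P20, with a gap of 0.833 of the range, which covers only 3.46 to 3.85 RPKM. Myc had 14.5 RPKM in the E16.5 line at P80, with a gap of 0.846 of the range. The E16.5 line also had the lowest Myc value of its passage at P20, 16.6 RPKM.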

How the results depend on the processing

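Myc and Mycn in the lines and Myc and Mxi1 in P1 against E11.5 kept their direction and call under every alternative run, and Mxd4 did in the lines. In P1 against E16.5, 1 member instead of 2 passed with no filter, trimmed-mean scaling or quantile scaling (Myc lost) or a term for the table set (Mxi1 lost). Within the same table set, lines at P20 gave 1262 genes and 3 members. Late against early primary NPCs gave 2 members after quantile scaling. Lines of late origin gave 17 genes with a pseudocount of 0.1 and 23 with no filter, and the difference between lines and primary cells by age gave 225 genes with a pseudocount of 0.1 and 57 after quantile scaling. The log2 ratio of repressing partners was -0.0195 with P80 lines alone and -0.133 without Mnt, on the other side of 0, within the spread between libraries.

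For withdrawal, a 1.5-fold threshold gave 1645 genes and 1 member for BMP7, 506 and 1 for CHIR, 884 and 2 for heparin, 916 and 2 for Y27632, and 2149 and 2 for LIF. A pseudocount of 0.1 gave 1214 genes and 1 member for BMP7, 321 genes for CHIR, 574 for heparin, 606 genes and 2 members for Y27632, and 1441 genes for LIF. Against the median of the other libraries, CHIR gave 1 member, heparin 185 genes and Y27632 2 members.

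Leaving out 1 library gave 1427 to 6376 genes for P1 against E11.5 (2 members throughout), 154 to 3912 for P1 against E16.5 (0 to 3 members), 400 to 1271 for Six2-negative cells (0 to 2), 1231 to 5632 for the F test (1 to 2), 3742 to 5821 for lines at P20 (4 to 5), 3887 to 6564 for lines at P80 (4 to 6), 0 to 6 for P80 against P20 (0), 1188 to 5561 for late against early primary NPCs (0 to 2), 6 to 218 for lines of late origin (0), and 10 to 871 for the difference between lines and primary cells by age (0). The partner ratio was -0.0926 to 0.169. Where 1 library was left in a group, it was assumed to vary like the others.

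With a replicate block, which in 5 of 6 groups also splits the libraries by table set, 1874 genes and 2 members were called in Six2-negative cells, 4842 and 2 in P1 against E11.5, 3094 and 3 in the F test (Mxd1 added, adjusted p = 0.045) and 744 and 2 in P1 against E16.5. The cause of these moves was not tested. Depth limits genes under an RPKM of 1, which rest on few reads in the shallowest libraries, and all 9 members lay above 3 RPKM in every library.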
